A study of Mus musculus with 2 samples.

Results

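The Mir106a-363 cluster, the Mir106b-25 cluster and the solitary gene Mir92b are relatives of the Mir17 cluster, and their 10 miRNA genes were followed in the neural tube of the mouse embryo. Members were chosen by name: they are the 10 genes, of 1973 counted, that carry these symbols in GENCODE M21. Read numbers are not part of that rule, though earlier results of these data were known when it was set. The tissue came from B6NCrl embryos at 12.5 days of development, described as healthy and carrying no listed allele or treatment. The only group held 2 small RNA libraries of pooled male and female embryos, 120 embryos for replicate 1 and 88 for replicate 2. There is no second tissue, age or genotype, so the comparisons are those between genes within a library and between the replicate libraries.

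A miRNA gene is transcribed as part of a long primary transcript, from which Drosha cuts a hairpin and Dicer a short duplex. One strand of that duplex, the guide, is loaded into an Argonaute protein and finds its target messenger RNAs mainly through its seed, the bases 2 to 8 from its 5′ end. Vertebrate genomes carry several copies of an ancestral polycistron. In the mouse these are the Mir17 cluster in the non-coding host Mir17hg on chromosome 14, its X-linked copy Mir106a-363, and the shorter copy Mir106b-25, which lies inside Mcm7, a gene for a subunit of the replicative helicase. These miRNAs are known for promoting cell cycle progression and survival in dividing progenitors, including those of the nervous system. Mouse mutants have shown that Mir17hg is essential and that loss of Mir106b-25 worsens the loss of Mir17hg, while loss of Mir106a-363 alone had little effect.

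The guide arms of the 10 genes fall into 4 seed groups, and these sequences are shown because every later grouping rests on them. They are mature sequences from RefSeq (GRCm38.p6), which held all 10 members, with the seed in capitals. The seed AAAGUGC of miR-17, the founding member of the family, is carried by 4 members, whose guide is the 5p arm.
miR-106a-5p: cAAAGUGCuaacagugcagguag
miR-20b-5p: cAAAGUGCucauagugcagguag
miR-106b-5p: uAAAGUGCugacagugcagau
miR-93-5p: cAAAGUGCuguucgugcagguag
miR-18b-5p has the seed AAGGUGC of the miR-18 group, and miR-19b-3p, the guide of Mir19b-2, the seed GUGCAAA of the miR-19 group.
miR-18b-5p: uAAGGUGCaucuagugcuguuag
miR-19b-3p: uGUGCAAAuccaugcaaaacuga
The seed AUUGCAC of the miR-92 group is carried by the other 4 members, whose guide is the 3p arm.
miR-92a-3p (Mir92-2): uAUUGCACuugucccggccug
miR-363-3p: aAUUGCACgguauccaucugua
miR-25-3p: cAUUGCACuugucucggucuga
miR-92b-3p: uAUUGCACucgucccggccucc

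Outside the seed the members differ from their Mir17hg relatives by few bases. Counted from 1 at the 5′ end, miR-106a-5p differs from miR-17-5p (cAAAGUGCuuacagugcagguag) at 1 position, U10A. miR-20b-5p differs from miR-20a-5p at U1C and U10C. miR-18b-5p differs from miR-18a-5p at A18U and A20U, and miR-92b-3p differs from miR-92a-3p by U10C and G21C over the 21 bases they can be compared on. miR-363-3p stands further off, with 11 differences from miR-92a-3p in 21 bases. How many mismatches the alignment allowed is not given in the sources used here, so a sequencing error could place a read of miR-17-5p at Mir106a.

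For Mir92-2 and Mir19b-2 the guide arm is not only similar but identical to that of a Mir17hg gene. Each whole guide occurs in 2 counted hairpins, and the guides of the other 8 members in 1. The stretches around these guides are shown with the run common to both hairpins in capitals.
Mir92-2: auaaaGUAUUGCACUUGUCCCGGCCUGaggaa
Mir92-1: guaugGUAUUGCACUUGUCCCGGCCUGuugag
Mir19b-2: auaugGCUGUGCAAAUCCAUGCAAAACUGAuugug
Mir19b-1: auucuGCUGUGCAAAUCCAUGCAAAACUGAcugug
The common run is 22 bases long for the Mir92 pair, 1 base longer than the 21-base guide, and 25 bases long for the Mir19b pair, whose guide has 23. A read inside that run maps to both loci. The files give multiply mapping reads in a row of their own, from which it was inferred that they are in no gene's count; the counting rule itself is not given. On that reading, the counts of Mir92-2, Mir92-1, Mir19b-2 and Mir19b-1 hold reads that reach beyond the run or come from the other arm, and lack those inside it.

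The authors' count per gene on its own strand was divided by the library's total of such reads, which gives reads per 1000000 gene reads (CPM). That total was 4802411 reads in replicate 1 and 4422853 in replicate 2, so 3 reads, the limit that a count of 0 allows, stand for 0.625 and 0.678 CPM. Reads mapping to several places came to 0.718 per gene read in replicate 1 and 0.610 in replicate 2. Genes that mark the tissue were present. Of 9 neural miRNA genes matched, 7 reached 10 reads in each library, the detection limit used throughout. Mir137 was the highest with 2541 and 3077 CPM, while Mir124a-1 and Mir124a-3 did not reach the limit. The neural list held 0.404% and 0.446% of gene reads in replicates 1 and 2. The Hox-linked genes Mir10a, Mir10b and Mir196b together held 34.5% and 33.3% of gene reads in replicates 1 and 2. Non-neural markers were present too. The endothelial gene Mir126a held 2.03% and 1.83%, the mesenchyme list 1.15% and 1.04%, and the striated muscle, liver, erythroid, leukocyte and epithelial lists under 0.1% each. In a bulk sample, a lower number of cells of a type and less RNA per cell cannot be told apart.

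All 10 members were detected, against 18.8% of all counted genes. Together they held 2.98% of gene reads in replicate 1 and 2.91% in replicate 2. No read lay on the opposite strand of any of them in either library. By uniquely assigned reads, the Mir106b-25 cluster contributed most, Mir92b less, and the 6 genes of Mir106a-363 the least. The spread between the libraries came to 2.50% of the mean for Mir363 and to 33.6% for Mir92b, the ends of the range over the 10 genes.

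**Figure D1:**
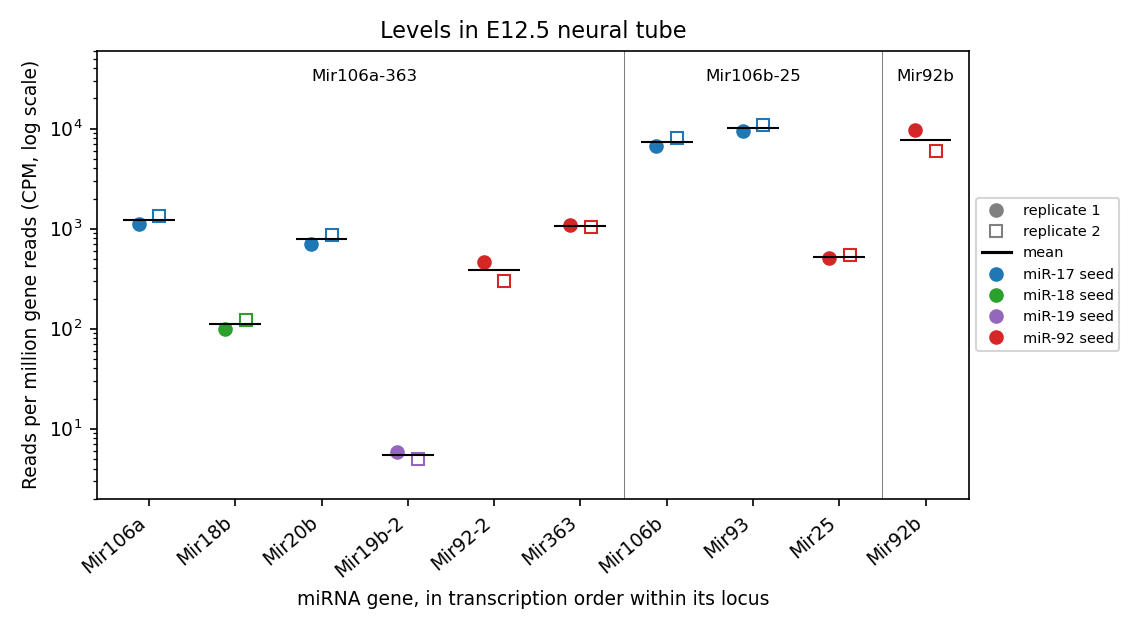
CPM (log scale) of the 10 members in replicate 1 (filled circles) and replicate 2 (open squares), with the mean as a line, ordered by transcription within each locus and coloured by seed group. Mir93, Mir106b and Mir92b lie between 5928 and 10932 CPM, while Mir19b-2 lies near 5 CPM. Guide reads inside the common run are taken to be missing for Mir19b-2 and Mir92-2.

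The Mir106b-25 cluster lies on chromosome 5 (138165321 to 138165818 on the minus strand, mm10), where 3 hairpins fill 498 bases inside Mcm7. Mir106b (138165737 to 138165818) is intronic in both Mcm7 transcripts that cover it. Mir93 (138165523 to 138165610) and Mir25 (138165321 to 138165404) are intronic in 2 of the 3 transcripts there and lie in an exon of the third, a retained-intron form. The cluster held 1.67% of gene reads in replicate 1 (exact Clopper-Pearson 95% interval 1.661 to 1.684) and 1.95% in replicate 2 (1.937 to 1.962). The intervals do not overlap, and they cover counting error only, since reads copied by PCR are not independent molecules when no molecular identifier marks them.

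Mir93 had the highest mean CPM of the members, with 9448 CPM in replicate 1 and 10932 CPM in replicate 2 (10190 ± 1049, SD, n = 2). It ranked 20 among the 1973 genes. Mir106b had 6767 and 8016 CPM (7392 ± 884), rank 24. Both guides carry the miR-17 seed, and Mir93 exceeded Mir106b by a ratio of 1.40 in replicate 1 and 1.36 in replicate 2. The ratio of 1.38 ± 0.0230 lay above 1 by more than its spread. Mir25, the cluster's miR-92-seed gene, had 506 and 546 CPM (526 ± 28.0), rank 113. Mir93 had 19.3 ± 0.965 times the reads of Mir25 from the same primary transcript, and Mir106b 14.0 ± 0.933 times. As a share of the cluster, Mir93 held 56.5% and 56.1%, Mir106b 40.5% and 41.1%, and Mir25 3.03% and 2.80%. The make-up of this cluster was nearly the same in both libraries even though its total differed. How evenly different sequences were captured in library preparation was not measured, so the ratios describe reads rather than molecules.

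**Figure D2:**
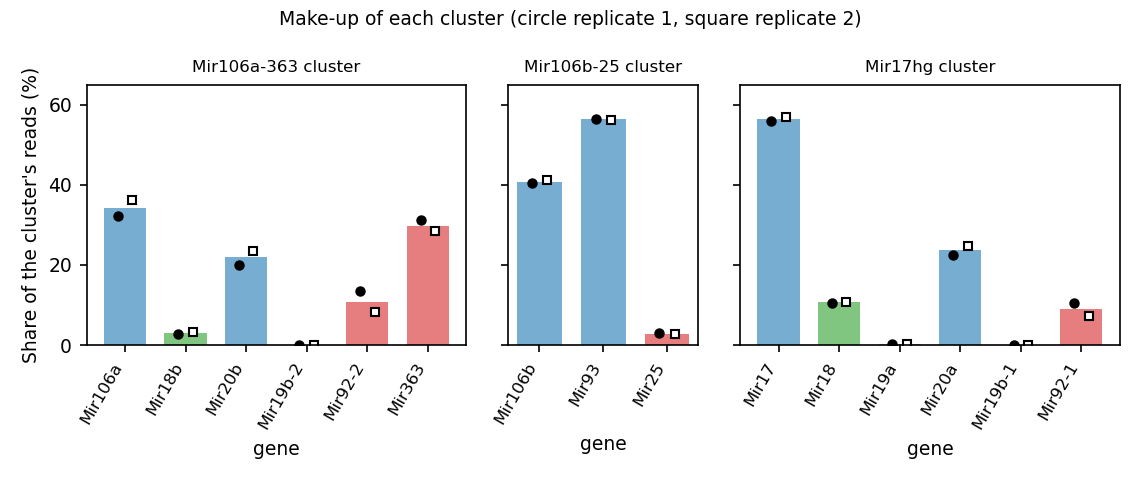
Share of each cluster's uniquely assigned reads held by each of its genes (%, bars show the mean, black circles replicate 1, open squares replicate 2), coloured by seed group as in the plot of levels. Mir93 and Mir106b make up 56.3% and 40.8% of Mir106b-25, while Mir363 holds 29.8% of Mir106a-363, where Mir106a has 34.2%. Guide reads inside the common runs of Mir92-2, Mir92-1, Mir19b-2 and Mir19b-1 are taken to be missing, so the leading gene of Mir106a-363 is not settled.

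The Mir106a-363 cluster occupies 875 bases of the X chromosome (52741693 to 52742567 on the minus strand) with 6 hairpins in the order Mir106a, Mir18b, Mir20b, Mir19b-2, Mir92-2 and Mir363. Only Mir106a (52742503 to 52742567) overlaps another M21 gene, in an exon of the processed transcript Kis2 on the same strand. The nearest coding gene, Ccdc160, is 48633 bases away from it. The cluster held 0.346% of gene reads in replicate 1 (0.3410 to 0.3515) and 0.366% in replicate 2 (0.3605 to 0.3717).

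By uniquely assigned reads, Mir106a led the cluster with 1116 CPM in replicate 1 and 1327 CPM in replicate 2 (1221 ± 149). Mir20b (52742113 to 52742192), the other gene of the cluster with the miR-17 seed, had 697 and 865 CPM (781 ± 119). Mir106a exceeded it by 1.57 ± 0.0471 times. Mir363 (52741693 to 52741767), which has no counterpart in Mir17hg, had 1079 and 1041 CPM (1060 ± 26.5). It was the closest to Mir106a of the 6 genes, and at 1.15 ± 0.170 the ratio of Mir106a to Mir363 lay within its spread of 1. Mir363 and Mir92-2 held 31.2% and 13.4% of the cluster's uniquely assigned reads in replicate 1, and 28.4% and 8.23% in replicate 2. Guide reads of Mir92-2 and Mir19b-2 inside the common runs are taken to be missing, so which gene leads the cluster is not settled.

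The other 3 genes of the cluster had fewer uniquely assigned reads. Mir92-2 (52741838 to 52741928) had 465 and 301 CPM (383 ± 116), the widest relative spread of the cluster. Mir18b (52742331 to 52742413) had 99.5 and 121 CPM (110 ± 15.3), and Mir106a had 11.1 ± 0.185 times its reads. Mir19b-2 (52741983 to 52742066) was read 28 and 22 times in replicates 1 and 2, or at 5.83 and 4.97 CPM (5.40 ± 0.605). Mir19b-1, which has the same guide, had 92 and 99 reads. These low numbers do not show that miR-19b is scarce, because reads within the 25-base common run are taken to be missing from both genes. Mir19a of Mir17hg, with the miR-19 seed and a guide found in 1 counted hairpin, had 98.3 and 113 CPM in replicates 1 and 2.

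Mir92b stands alone on chromosome 3 (89227116 to 89227198 on the minus strand). No other M21 gene overlaps it, and the annotated 5′ end of Mtx1, which encodes a protein of mitochondrial import, lies 28 bases downstream on the same strand. In the developing cortex of the mouse, miR-92b has been linked to limiting the production of intermediate progenitors through the transcription factor gene Eomes. Mir92b had 46227 reads in replicate 1 and 26218 in replicate 2, or 9626 and 5928 CPM (7777 ± 2615). This gene alone held 0.963% (0.9539 to 0.9714) and 0.593% (0.5857 to 0.6000) of gene reads. It exceeded Mir363 by 7.31 ± 2.28 times and Mir25 by 14.9 ± 5.77 times, each of which carries the same seed.

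By mean CPM the order was Mir93, Mir92b, Mir106b, Mir106a, Mir363, Mir20b, Mir25, Mir92-2, Mir18b and Mir19b-2. The upper part of this order is not settled, since Mir92b was above Mir93 and Mir106b in replicate 1 and below both in replicate 2. The ratio of Mir93 to Mir92b was 0.982 in replicate 1 and 1.84 in replicate 2. Besides these, Mir106a and Mir363 did not differ beyond their spread, nor did Mir25 and Mir92-2, whose ratio was 1.45 ± 0.511. The direction was the same in both libraries for each pair. In replicates 1 and 2, Mir106a to Mir363 was 1.03 and 1.27, and Mir25 to Mir92-2 was 1.09 and 1.81. The remaining neighbours differed by more than their spread. The widest steps were the 6.05 ± 0.0163 times between Mir106b and Mir106a and the 20.7 ± 5.16 times between Mir18b and Mir19b-2. The counts of Mir92-2 and Mir19b-2 are taken to lack guide reads inside the common run. Their places and steps in this order are therefore those of the remaining reads, and do not show how abundant their miRNAs are. With 2 libraries an exact test cannot reach a p below 0.5, so no p is given for this order.

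For likeness, the next detected gene above and below the leading member of each locus in mean CPM was taken. Members, Mir17hg genes and other genes with these seeds were left out of this choice, so it cannot show likeness to relatives. Mir93 lay between Mir183 (10623 ± 1787 CPM), a miRNA of sensory cells, and Mir182 (8703 ± 2658 CPM) of the same cluster as Mir183. Mir92b lay between the imprinted Mir487b (8163 ± 26.6 CPM) and, with Mir106b also in the gap, Mir149 (7046 ± 408 CPM). Mir106a lay between Mir27b (1238 ± 5.36 CPM) and Mir598 (1200 ± 24.0 CPM). Likeness here is the difference in mean CPM over 2 libraries and nothing more.

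Grouping all counted genes by the seed of their guide shows which locus supplied the reads of each group. A gene's count pools both arms, so reads of the other arm, which need not carry the seed, are included. Besides the members and the 6 Mir17hg genes, 3 counted genes have a mature arm with one of these seeds. Mir32 carries the miR-92 seed and had 162 and 177 CPM. Mir367 with the miR-92 seed and Mir6383 with the miR-17 seed had 0 reads in both libraries. The miR-17 seed group held 5.10% of gene reads in replicate 1 and 6.07% in replicate 2, and the miR-92 group 1.62% and 1.15%. The miR-18 group held 0.456% and 0.535%, and the miR-19 group 0.0123% and 0.0140%.

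The members supplied 35.1% ± 0.367 of the reads of the miR-17 group, and Mir17hg the other 64.9% ± 0.367. Within the members' part, Mir106b-25 gave 31.5% ± 0.407 and Mir106a-363 3.58% ± 0.0399. In the miR-92 group the balance was the other way round, with 69.8% ± 2.93 from the members and 28.9% ± 2.55 from Mir92-1 of Mir17hg. Mir92b alone gave 59.3% of the reads of the miR-92 group in replicate 1 and 51.4% in replicate 2. Mir106a-363 gave 9.50% and 11.6% and Mir25 3.12% and 4.73%. The miR-18 group came almost wholly from Mir17hg. Mir18b supplied 2.22% ± 0.0605 of the reads of the miR-18 group and Mir19b-2 4.14% ± 0.839 of the uniquely assigned reads of the miR-19 group. Reads of miR-92a-3p and miR-19b-3p that map to a pair of loci are taken to be missing here. The shares in the miR-92 and miR-19 groups, that of Mir92b included, are therefore those among uniquely assigned reads, and the locus of miR-19b reads inside the common run is not known. What remains for Mir92-1, Mir92-2, Mir19b-1 and Mir19b-2 may include reads of the other arm, so these are shares of gene counts and not of seed-bearing reads.

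**Figure D3:**
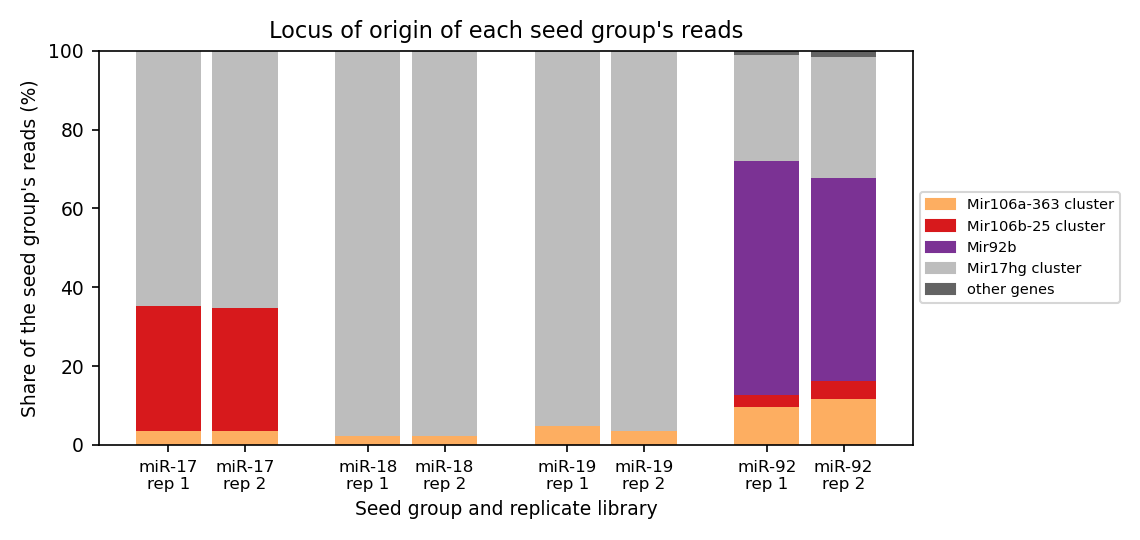
Locus of origin of the reads of each seed group (% of the group's uniquely assigned reads, both arms pooled, 1 bar per replicate library). Mir92b fills 59.3% and 51.4% of the miR-92 bars in replicates 1 and 2, and Mir17hg fills about 65% of the miR-17 bars and nearly all of the miR-18 and miR-19 bars.

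Set against Mir17hg position by position, the X-linked copy was low throughout, and the Mir106b-25 copy was close at 1 position. Mir106a-363 had 0.0790 ± 0.00493 of the uniquely assigned reads of Mir17hg, and Mir106b-25 had 0.400 ± 0.00265. Mir106a had 0.0478 ± 0.000444 of the reads of Mir17, Mir20b 0.0728 ± 0.000962 of those of Mir20a, and Mir18b 0.0227 ± 0.000633 of those of Mir18. These ratios within the X-linked cluster differed from each other by more than their spread between libraries. Mir92-2 had 0.0952 ± 0.0145 of the reads of Mir92-1 and Mir19b-2 0.263 ± 0.0581 of those of Mir19b-1, both on uniquely assigned reads alone. In Mir106b-25, Mir106b had 0.289 ± 0.00191 of the reads of Mir17 and Mir25 0.134 ± 0.0276 of the uniquely assigned reads of Mir92-1. Mir93 had 0.996 of the reads of Mir20a in replicate 1 and 0.912 in replicate 2, a ratio of 0.954 ± 0.0597 that did not differ from 1 beyond its spread. Mir92b had 1.93 ± 0.363 times the uniquely assigned reads of Mir92-1. The count of Mir92-1 is taken to lack guide reads that those of Mir92b and Mir25 hold, so these values do not show which of the miRNAs is more abundant.

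Between the replicate libraries the members did not all shift the same way. All 4 miR-17-seed members were lower in replicate 1, with CPM ratios of replicate 1 to replicate 2 between 0.806 for Mir20b and 0.864 for Mir93. Mir18b (0.821) and Mir25 (0.927) were lower as well, which makes 6 of 10 members, where 43.9% of the 371 detected genes were lower in replicate 1. That share depends on the scaling. With TMM and DESeq2 size factors it was 49.9% and 50.1%, with 6 members lower under each. The miR-92-seed members Mir92b and Mir92-2 were higher in replicate 1, Mir92b by 1.62 times (counting interval 1.60 to 1.65) and Mir92-2 by 1.54 times (1.44 to 1.65). These 2 were the members at least 1.5-fold apart, both higher in replicate 1, where 12.9% of detected genes were that far apart, 10.2% higher and 2.70% lower in replicate 1. With DESeq2 size factors the log2 ratio of Mir92-2 was 0.58, under 1.5-fold. Then 1 member, Mir92b, remained past it, where 11.1% of detected genes were. The share of the members past that fold is near that of all detected genes. Mir363 (1.04, 0.995 to 1.08) and Mir19b-2 (1.17, 0.647 to 2.15) had counting intervals that include 1. The counts of Mir92-2 and Mir19b-2 are taken to lack guide reads inside the common run, so their ratios describe the remaining reads.

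Abundance sets Mir92b apart from most genes that differ between the libraries. Among the 89 detected genes with a mean of at least 1000 CPM, a minimum set after the values were seen, 3.37% were at least 1.5-fold apart. They were Mir92b, Mir483 (1332 and 825 CPM, ratio 1.61) and Mir182 (6823 and 10583 CPM, ratio 0.645). Mir92b had the highest ratio of the 89. Over all detected genes the log2 ratio had a median of 0.04, with 95% of genes between -0.58 and 1.04, and the log2 ratio of Mir92b was 0.70. Over the 89 abundant genes the same range was -0.34 to 0.57. No p is attached to these differences, because each side is 1 library.

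Mir17hg genes differed in direction too. The miR-17-seed genes Mir17 and Mir20a had ratios of 0.852 and 0.791, while Mir92-1, in the same primary transcript, had 1.24 (1.22 to 1.27). Mir92-1 held 10.5% of the Mir17hg reads in replicate 1 and 7.32% in replicate 2, and Mir92-2 13.4% and 8.23% of Mir106a-363. Mir25, the miR-92-seed gene of the Mir106b-25 cluster, changed little as a share of its cluster, with 3.03% and 2.80%. The miR-92 seed group was not uniform. The ratio was 1.62 for Mir92b, 1.54 for Mir92-2 and 1.24 for Mir92-1, but 1.04 for Mir363 and 0.927 for Mir25. Mir32, outside these loci, had 162 CPM in replicate 1 and 177 CPM in replicate 2. The counts of Mir92-2 and Mir92-1 are taken to lack guide reads inside the common run, so their ratios and shares describe the remaining reads.

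Base composition was set beside this difference. The hairpin of Mir92b has 67.5% GC, the highest of the 16 family genes, and its guide 63.6%. Hairpin GC did not order the other miR-92-seed genes by their ratio, with 63.1% for Mir25, 47.3% for Mir92-2, 47.5% for Mir92-1, 41.3% for Mir363 and 38.6% for Mir32. Of the 70 detected genes whose hairpin has at least 60% GC, 18.6% were at least 1.5-fold higher in replicate 1, with a median log2 ratio of 0.14. Of the 129 genes with 50 to 60% GC, 8.53% were, with a median of 0.03. Across the 371 detected genes, which share the same pair of libraries, Spearman's rho of hairpin GC and log2 ratio was 0.12. Across the 89 genes with a mean of at least 1000 CPM it was 0.20. The 7 of these with at least 60% GC, Mir92b included, had a median log2 ratio of 0.25, and the 38 with 50 to 60% GC had -0.01. The GC classes were drawn after the values were seen. Among the cell type markers, the striated muscle list held 0.0811% of gene reads in replicate 1 and 0.0470% in replicate 2, with Mir1a-1 at 1 and 0 reads and Mir133a-1 at 0 in both. The liver gene Mir122 held 0.00323% and 0.00140%, and the neural list 0.404% and 0.446%. The neural sum rests mainly on Mir137, and the 7 detected neural genes did not shift alike. Of these, 5 were higher and 2 lower in replicate 1, with Mir128-1 at 234 and 152 CPM and Mir128-2 at 172 and 107 CPM. The part of base composition, reads mapping to several places or tissue make-up in the Mir92b difference was not tested.

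**Figure D4:**
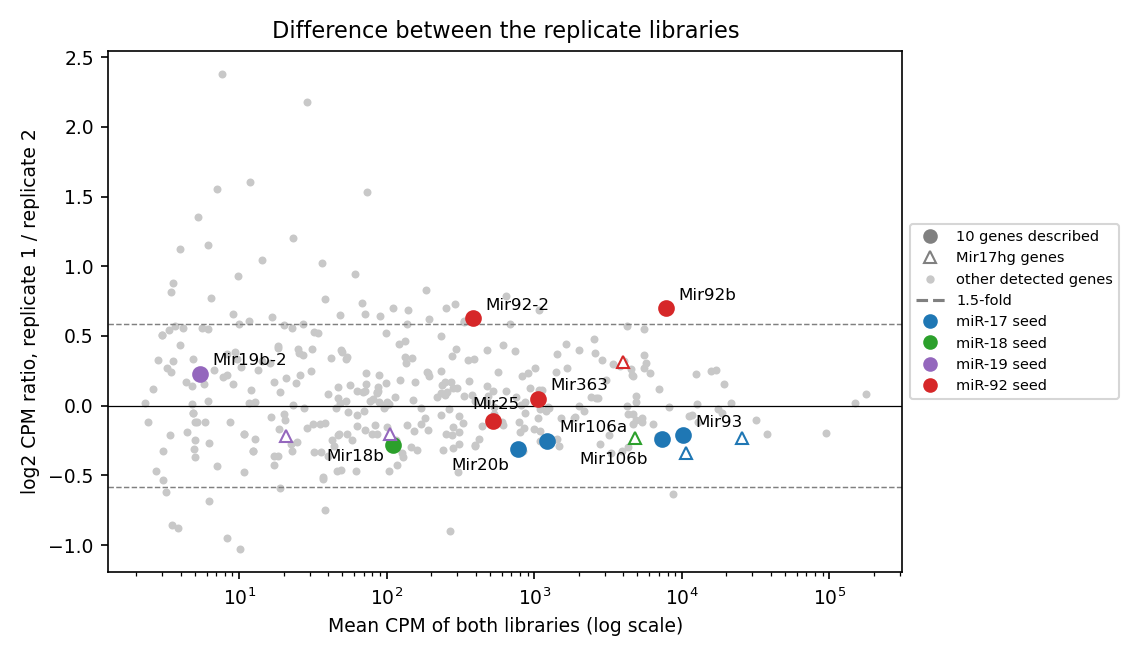
log2 CPM ratio of replicate 1 to replicate 2 (y axis) against mean CPM (log x axis) for the 371 detected genes in grey, the 10 members as filled circles and the Mir17hg genes as open triangles, coloured by seed group, with dashed lines at 1.5-fold. Mir92b (0.70) and Mir92-2 (0.63) lie above the upper line, and the 4 miR-17-seed members lie between -0.31 and -0.21.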

How the data were processed

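MicroRNA libraries (size range below 30, per the labels) of neural tube were analysed from 2 replicates of 1 group. What the authors deposited is a raw count of reads for every miRNA gene, made from the alignment of each library to mm10 with annotation M4, per the descriptions deposited with the files. Which aligner and counter made it was not given in the sources used here. Counts of the third column, reads on the gene's own strand, were used, and the 4 rows that name no gene were left out of totals: in replicates 1 and 2, unmapped reads were 27.3% and 20.0% of all reads, multiply mapping reads 27.0% and 28.6%, those on no feature 8.04% and 4.45%, and ambiguous reads 0. A gene count pools both arms of a hairpin. Symbols and coordinates came from GENCODE M21 (GRCm38), which matched 1894 of 1973 identifiers, and mature sequences from RefSeq GRCm38.p6. The guide arm of each gene was set from general knowledge of the family.

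Errors are the SD of the 2 replicates, which are separate pools per the labels. There being 1 group, edgeR's quasi-likelihood test did not apply, and libraries were compared by fold alone. edgeR 4.0.16 (TMM) and DESeq2 1.42.0 gave other scalings. The ratio calculation was run on simulated counts with known, larger fold changes and counting error only. It does not show how reliable a 1.5-fold call between pools is. Computations used R 4.3.3, Python 3.11.15, numpy 2.4.6, pandas 2.3.3, scipy 1.17.1 and matplotlib 3.10.9. Genes named are the 10 members, the 6 Mir17hg genes, other counted genes with the same seeds, the neighbours in CPM of the leading member of each locus and the cell type markers. Mir483 and the GC classes were chosen after their values were seen. Members and lists were chosen with earlier results of these data known.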

Additional observations from a re-analysis of the deposited data

How the results depend on the processing

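Leaving out 1 of 2 libraries moves a mean by less than 1 SD by construction, and ratios between members cannot change with the strand column, since no member has an opposite-strand read, so neither shows stability. TMM and DESeq2 scaling moved the mean CPM of each of the 10 members by less than its SD. Both raised the total used for replicate 1 and lowered that for replicate 2. A mean over the 2 libraries therefore hardly moves, and this does not show stability either. With multiply mapping reads added to the denominator, the shares were 0.214% for Mir106a-363, 1.09% for Mir106b-25, 0.464% for Mir92b, 3.37% for the miR-17 seed group, 0.299% for miR-18, 0.00795% for miR-19 and 0.831% for miR-92, and the CPM of all 10 members fell alike, by the construction of that denominator. Without genes whose guide another gene shares, Mir106a-363 held 0.317%, the miR-19 group 0.0106% and the miR-92 group 0.953%, since fewer genes are summed. The number of members past 1.5-fold was 2, where 12.9% of detected genes were past it. It was 2 with TMM, where 11.3% of detected genes were. It was 1 with DESeq2 size factors, where Mir92-2 had a log2 ratio of 0.58 and 11.1% of detected genes were past 1.5-fold. At 2-fold it was 0, and the share of all detected genes was not taken at that setting. TMM moved the median log2 ratio of all detected genes from 0.04 to 0.00. It left 6 of 10 members lower in replicate 1, where 49.9% of detected genes were lower. With DESeq2 size factors 6 members were lower too, where 50.1% of detected genes were. With either replicate alone, Mir106a-363 held 0.346% to 0.366%, Mir106b-25 1.67% to 1.95% and Mir92b 0.593% to 0.963%. Depth limits Mir19b-2, whose 28 and 22 reads cannot show a difference between libraries. No paired analysis was possible because there is 1 group.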
